A study of Mus musculus with 6 samples.

Results

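Collagens are the 44 genes of the table whose mouse symbol has the form Col, number, a, number, out of 25888 genes in all. They were measured by RNA sequencing in 3 Hand2 mutant (conditional knockout, cKO) libraries and 3 control libraries from C57BL/6 mouse embryos at embryonic day 9.5. The mutants carried homozygous floxed alleles of Hand2, a gene for a transcription factor (basic helix-loop-helix family) needed in the heart field, and the transgene Mef2c-AHF-Cre, whose activity is restricted to cells derived from the anterior heart field. The controls are labelled only as control, so the alleles that they carry are not known here. Each library was made from anterior dorsal pericardial wall (aDPW) and outflow tract (OFT), pooled from a number of embryos that is not given. The aDPW holds progenitors of the OFT, the tube by which blood leaves the early heart. Nothing says that libraries of 1 group came from different litters, and the p-values then speak only to the spread among these 6 libraries, which may be technical. In such mutants, cells outside the Cre lineage keep their Hand2 alleles.

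A collagen molecule is built from chains wound around each other in a rope-like helix, and its class follows from how those molecules assemble. Fibrillar collagens (types I, II, III, V, XI, XXIV and XXVII) form the fibers that bear load. Type IV forms the sheet of the basement membrane, and the short chains of types VIII and X form hexagonal networks. FACIT collagens (such as IX, XII, XVI and XXII) sit on the surface of fibrils or at tissue borders, transmembrane collagens (XIII, XVII, XXIII and XXV) are anchored in the cell membrane, and multiplexins (XV and XVIII) stand in basement membrane zones. In the early heart, collagens are found in basement membranes and in the cardiac jelly between myocardium and endocardium.

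Values are FPKM, fragments scaled to gene length and library size, so levels of different genes can be compared per length. The test was limma on log2(FPKM + 1) over the 12650 genes with a mean of at least 1 FPKM over the 6 libraries, fold changes are mutant over control on that scale, and p-values were adjusted over all of them. Of the 44 collagens 29 passed that filter. Those just inside were Col8a1, Col7a1 and Col25a1, each at a mean of 1.01 FPKM, and the nearest outside were Col14a1 at 0.865 and Col8a2 at 0.777. Col8a1 and Col22a1 passed only through the controls, and Col7a1, Col11a2 and Col25a1 only through the mutants. The replicate numbers of the labels went with shared deviations in both groups, so besides the plain fit another had the replicate number as a block, and its adjusted p is given as "with the block".

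Hand2 was at 34.6, 22.2 and 17.9 FPKM in mutant libraries 1 to 3, against 116, 64.3 and 81.7 FPKM in control libraries 1 to 3, so it was lower in every mutant library (limma adjusted p = 0.109 without the block and 0.00279 with it). The whole reads behind the FPKM values, which could be recovered, summed to between 23226307 and 26387043 in mutant libraries and between 25038518 and 30184380 in control libraries. For genes whose length did not match the reference annotation, the shortest length giving whole reads was used. These sums are thus no exact count of library reads. In mutant library 1 and control library 1 they exceeded the library size implied by the FPKM values (22975222 and 23269534), and elsewhere they were below it. Control library 3 stood apart by transcripts of yolk sac and liver endoderm, a list of 11 genes that summed to 713 FPKM there, to between 4.83 and 9.41 FPKM in the mutant libraries, and to 9.35 and 5.75 FPKM in control libraries 1 and 2. Summed smooth muscle markers (8 genes) were at 1123 to 1409 FPKM in mutants and 1662 to 2476 FPKM in controls, and summed endothelial and endocardial markers (10 genes) at 178 to 199 FPKM in mutants and 211 to 262 FPKM in controls, and in both lists the groups did not overlap. Summed cardiac muscle markers (12 genes) were at 3579 to 5575 FPKM in mutants and 5444 to 8789 FPKM in controls. By gene, 7 of 12 cardiac, 6 of 7 smooth muscle and 5 of 10 endothelial markers tested fell with the block, and none without it. Of all genes tested 3.70% and 0.150% were called lower with and without the block. Acta2 and Tagln were the highest of the smooth muscle list (means of 1138 and 478 FPKM), and Myl7 and Actc1 of the cardiac list (2170 and 2052 FPKM). Mylk of smooth muscle and Myl2 of cardiac muscle had a higher mean in mutants. Of these 3 lists only Myh11, a smooth muscle myosin, had a mean under 1 FPKM, and no gene was at 0 in every library. In such pooled tissue, fewer cells of a type and less RNA per cell cannot be told apart.

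Most of the collagen message came from a few genes, and its sum overlapped between the groups. Summed over all 44 genes, collagen was at 704, 845 and 699 FPKM in mutant libraries 1 to 3, against 706, 672 and 768 FPKM in control libraries 1 to 3. Fibrillar chains made up 48.3% to 54.2% of that sum in mutants and 45.1% to 49.4% in controls. The highest sum and the highest fibrillar share were those of mutant library 2. Col1a1 was at 130 FPKM there and at 27.4 to 58.1 FPKM in the other libraries. Basement membrane chains made up 18.1% to 22.5% in mutants and 20.3% to 23.8% in controls, and the multiplexins 21.05% to 21.55% in mutants and 18.88% to 21.83% in controls. Only Col2a1 and Col18a1 had a mean above 100 FPKM over the 6 libraries, and 11 genes had a mean of at least 10. The 15 collagens under the filter included 8 with a mean under 0.1 FPKM.

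**Figure D1:**
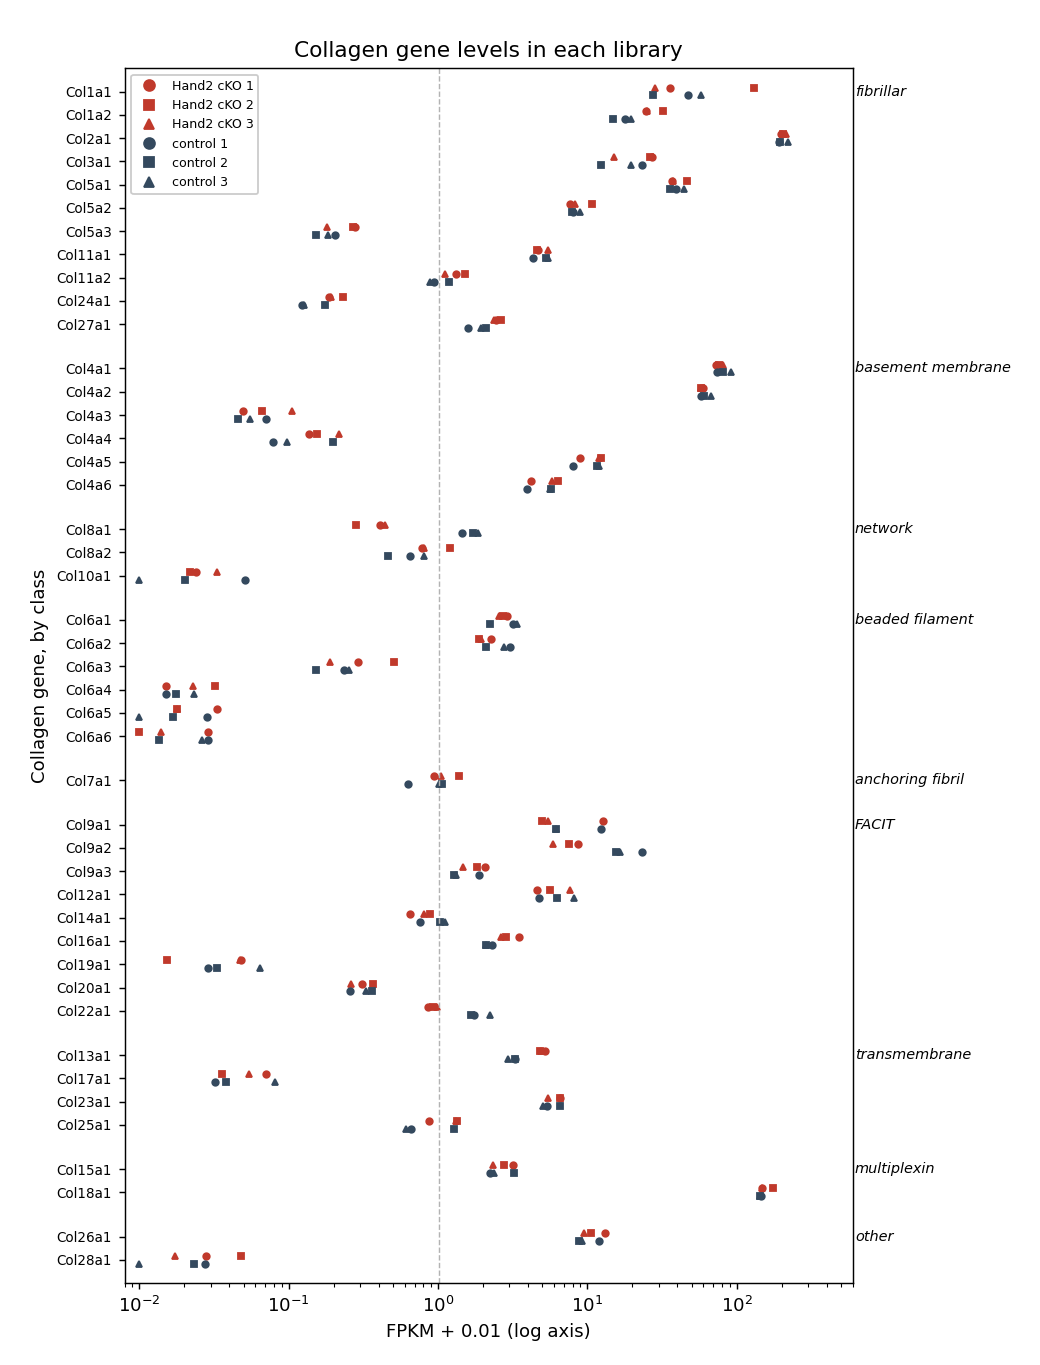
FPKM plus 0.01 on a log axis for the 44 collagen genes, grouped by class, with each library as a point (Hand2 cKO in red above, control in dark blue below, and the marker shape for the replicate number). The dashed line marks 1 FPKM, and Col2a1 and Col18a1 lie furthest right while Col8a1, Col9a2 and Col22a1 show mutant points left of the control points.

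With the replicate number as a block, 3 collagens fell and 1 rose in mutants. Col8a1, Col9a2 and Col22a1 were at 22.2%, 39.8% and 48.7% of their control means, and Col13a1 was 1.57-fold higher. Col8a1 and Col22a1 passed the filter only through the controls, so the counts of falls here rest in part on that filter. Without the block Col8a1 alone passed, 1 of 29 lower and 0 of 29 higher, where 0.150% and 0.0237% of all genes tested were called lower and higher (by unadjusted limma p below 0.05, 3 collagens were lower and 4 higher, against 4.32% and 2.60% of all genes tested). With the block, 3.70% and 1.42% of all genes tested were called lower and higher. When genes of any level were tested, none of these 4 passed with or without the block.

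Col8a1 encodes a short chain of type VIII collagen, a network collagen of vessel walls and of heart valves in the mouse embryo. It had 0.400, 0.271 and 0.430 FPKM in mutant libraries 1 to 3 (47, 37 and 60 reads) and 1.43, 1.70 and 1.83 FPKM in control libraries 1 to 3 (170, 269 and 252 reads). Every mutant library lay below every control library, and the means were 0.367 ± 0.0844 FPKM in mutants and 1.65 ± 0.205 FPKM in controls (SD, n = 3 each). The log2 fold change was -0.96 (SE 0.11) on the log2(FPKM + 1) scale, which shrinks the change of a gene this low (limma adjusted p = 0.0412 without the block and 0.0111 with it). On the recovered reads, limma voom gave a log2 fold change of -2.19. Both calls depend on the filter. They held at a minimum mean of 0.5 FPKM (limma adjusted p = 0.0473 without the block and 0.0127 with it). With no filter they were lost (limma adjusted p = 0.0963 without the block and 0.0950 with it). Without the block the call was also lost with a pseudocount of 0.1 (adjusted p = 0.0585). It was lost too after rescaling to equal sums, taken without red cell markers and genes of the mitochondrial genome (adjusted p = 0.143). It did not hold either when any 1 mutant library was left out (limma adjusted p = 0.121 to 0.228), and without any 1 control library the gene was under the filter. With the block the call was lost without both libraries numbered 2 (adjusted p = 0.0543) and kept without those numbered 1 (0.0194), and without those numbered 3 the gene was not tested. On GRCm38 it lies on chromosome 16 from 57624258 to 57754737 on the minus strand, in 4 exon blocks of 7833 bases, while the length that fits its counts is 5108 bases, so part of the annotated exons may not have been counted. Summed smooth muscle and endothelial markers, given above, were also lower in mutants, and their part in the Col8a1 difference was not tested.

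Its partner chain gene was at a higher mean in mutants, with overlap between the groups. Col8a2, which encodes the other type VIII chain, had 0.776, 1.20 and 0.799 FPKM in mutants and 0.641, 0.452 and 0.795 FPKM in controls, and was not tested because its mean over all libraries was under 1 FPKM. The ratio of Col8a1 to Col8a2 was 0.516, 0.226 and 0.538 in mutant libraries and 2.23, 3.75 and 2.31 in control libraries, so Col8a1 was the lower of the pair in all mutant libraries and the higher in all control libraries. The third network gene, Col10a1 of hypertrophic cartilage, had at most 0.0412 FPKM in any library.

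Col9a2 encodes a chain of type IX collagen, which decorates type II fibrils in cartilage, notochord and other embryonic matrices. It had 8.71, 7.53 and 5.91 FPKM in mutant libraries 1 to 3 against 23.4, 15.7 and 16.7 FPKM in control libraries 1 to 3. The groups were well apart, at 7.38 ± 1.40 FPKM in mutants and 18.6 ± 4.19 FPKM in controls (SD, n = 3 each). The log2 fold change, -1.22 (SE 0.18), was larger in size than that of Col8a1 on this scale, while on the recovered reads voom gave -1.33 for Col9a2 (limma adjusted p = 0.0883 without the block and 0.00348 with it). With the block it also passed when the libraries of any 1 number were dropped (adjusted p = 0.00606 to 0.0137, the lowest of these without control library 3 and its partner). Without the filter it did not pass with the block (adjusted p = 0.0879), and rescaled to equal sums it passed without the block (0.0445). Col9a2 spans 121039385 to 121055322 of chromosome 4 (GRCm38, plus strand) in 31 exon blocks.

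The other type IX chains did not pass in either fit. Col9a3 had 2.06, 1.83 and 1.45 FPKM in mutants and 1.86, 1.27 and 1.31 FPKM in controls, with a log2 fold change of 0.17 (SE 0.14). Col9a1 had 12.7, 4.96 and 5.41 FPKM in mutants and 12.3, 6.13 and 6.15 FPKM in controls. The library numbered 1 of each group thus held about as much Col9a1 as its counterpart and more than the rest, and the log2 fold change was -0.12 (SE 0.37). The ratio of Col9a2 to Col9a3, chosen after the values were seen, was 4.23, 4.13 and 4.07 in mutant libraries and 12.5, 12.3 and 12.7 in control libraries. In relative terms it varied less within a group than either gene did, while the ratio of Col9a1 to Col9a2 ranged from 0.659 to 1.46 in mutants and from 0.369 to 0.528 in controls. Col9a3 shares 234 exonic bases with Tcfl5 on the other strand, and whether the counting used strand is not known here.

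Genes tied to the same matrix were measured beside it. Col2a1, the type II chain to which type IX binds, had 199, 203 and 215 FPKM in mutants and 193, 196 and 220 FPKM in controls, a log2 fold change of 0.02 (SE 0.12). It was the most abundant collagen of the table and its groups overlapped throughout. Col11a1, the type XI chain of the same fibrils, had 4.69, 4.59 and 5.42 FPKM in mutants and 4.29, 5.30 and 5.42 FPKM in controls. Sox9, the transcription factor of cartilage progenitors, had a mean of 12.3 ± 0.915 FPKM in mutants and 9.10 ± 1.63 FPKM in controls (SD, n = 3 each). Pax9, a factor of sclerotome and pharynx, had 4.80, 6.58 and 5.06 FPKM in mutants and 3.75, 4.46 and 3.80 FPKM in controls. Both rose with the block and not without it (limma adjusted p = 0.541 and 0.572 in the plain fit, 0.0369 and 0.0359 in the blocked fit). The 6 genes of the sclerotome and cartilage list summed to 29.0 to 36.3 FPKM in mutants and 21.1 to 31.0 FPKM in controls, with overlap. Of the same list Pax1 (means of 13.1 FPKM in mutants and 11.5 in controls) and Nkx3-2 (2.42 and 2.22) overlapped and passed in neither fit. The cartilage genes Acan and Matn1 were at most 0.189 and 0.110 FPKM in any library. Acan was lower in mutants without overlap (means of 0.103 and 0.163 FPKM), and Matn1 had a higher mean in mutants with overlap. The 5 notochord markers summed to 9.23 to 13.1 FPKM in mutants and 9.84 to 11.2 FPKM in controls. Noto was listed at 0 in all control libraries and in mutant library 2, and at only 0.0272 and 0.0228 FPKM in mutant libraries 1 and 3. T and Noto both had a mean under 1 FPKM, so the sum was mostly that of Shh, Foxa2 and Foxa1. The summed smooth muscle and endothelial markers, given above, were lower in mutants without overlap, and the summed cardiac markers with overlap. Whether the makeup of the pools has a part in the Col9a2 difference was not tested.

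Col22a1 encodes type XXII collagen, a FACIT of myotendinous junctions that is also found in heart. It had 0.842, 0.919 and 0.970 FPKM in mutant libraries 1 to 3 and 1.74, 1.64 and 2.23 FPKM in control libraries 1 to 3, without overlap. The means were 0.910 ± 0.0644 FPKM in mutants and 1.87 ± 0.315 FPKM in controls (SD, n = 3 each), and the log2 fold change was -0.58 (SE 0.11). The gene passed the filter only through the controls. It fell in the blocked fit and not in the plain fit (limma adjusted p = 0.0292 and 0.190). With array weights and no block it also passed (adjusted p = 0.0191). Dropping the libraries of any 1 number ended the call of the blocked fit (adjusted p = 0.0704 to 0.104), as did testing without the filter (0.144). Col22a1 occupies 71795795 to 72034227 of chromosome 15 (GRCm38, minus strand) in 66 exon blocks. Summed smooth muscle markers, given above, were lower in mutants without overlap and summed cardiac markers with overlap. With the block 6 of 7 smooth muscle and 7 of 12 cardiac markers tested fell, where 3.70% of all genes tested were called lower. The part of these markers in this result was not tested.

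Col13a1 encodes type XIII collagen, a transmembrane collagen found at cell-matrix adhesions and at the neuromuscular junction. It had 5.23, 4.78 and 4.86 FPKM in mutant libraries 1 to 3 against 3.27, 3.29 and 2.94 FPKM in control libraries 1 to 3, and each group was tight. On the log2(FPKM + 1) scale the difference was 0.52 (SE 0.09), and it passed in the blocked fit (limma adjusted p = 0.0139) but not in the plain fit (0.125). With the block the call was lost without both libraries numbered 1 (adjusted p = 0.0534) and without the filter (0.119). Col13a1 occupies 61838236 to 61979108 of chromosome 10 (GRCm38, minus strand) in 44 exon blocks. The head and skeletal muscle list (6 genes) summed to 52.7 to 55.2 FPKM in mutants and 28.7 to 31.6 FPKM in controls, without overlap, although its defining genes Myf5, Myod1, Msc and Myog each had a mean under 1 FPKM. Whether those cells have a part in the Col13a1 difference was not tested.

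The other transmembrane chains were also at a higher mean in mutants but did not pass. Col23a1 had 6.58, 6.57 and 5.49 FPKM in mutants and 5.36, 6.55 and 5.03 FPKM in controls, and Col25a1, first described in human Alzheimer plaques, had 1.17 ± 0.264 FPKM in mutants and 0.838 ± 0.373 FPKM in controls (SD, n = 3 each). Col17a1, the hemidesmosome collagen of epidermis, was at most 0.0709 FPKM in any library. The class as a whole summed to 12.7, 12.7 and 11.7 FPKM in mutants and 9.29, 11.1 and 8.64 FPKM in controls.

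**Figure D2:**
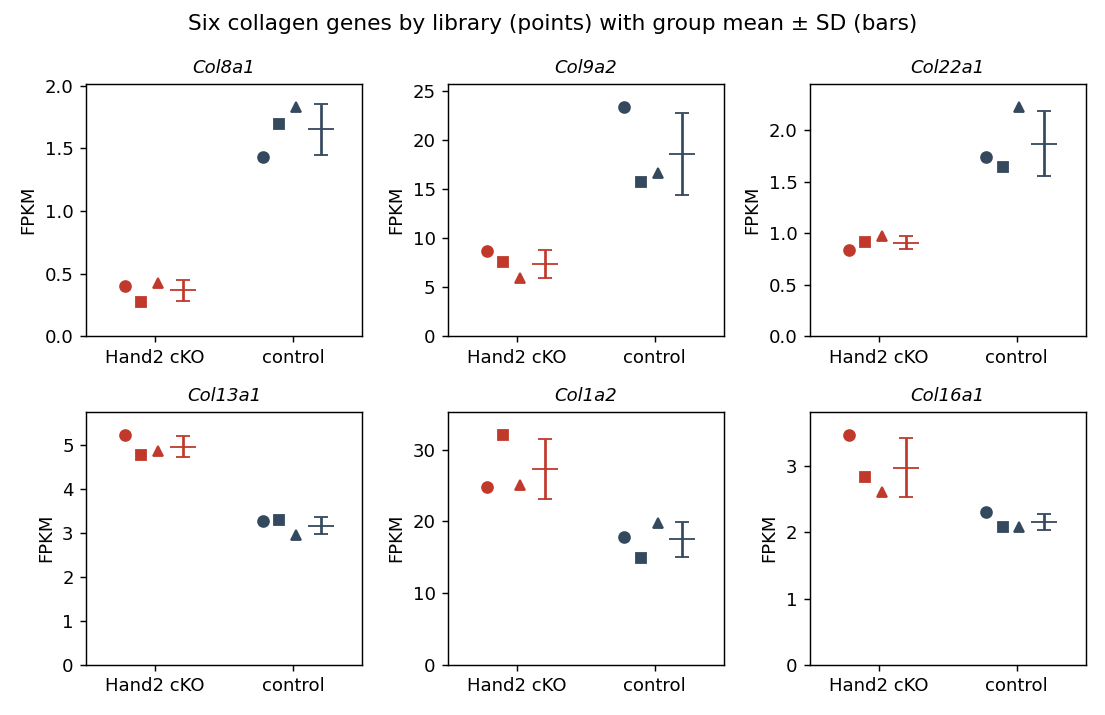
FPKM in each library for 6 collagen genes, with Hand2 cKO libraries left and control libraries right in each panel and the group mean ± SD (n = 3) beside the points. In Col8a1, Col9a2 and Col22a1 all mutant points lie below all control points, and in Col13a1, Col1a2 and Col16a1 all lie above, of which Col1a2 and Col16a1 did not pass in the fit with or without the block.

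The sequences before the transcription starts of Col8a1, Col13a1 and Col9a2 are shown because these genes passed a fit and Hand2 is a factor that binds E-boxes (CANNTG, a motif that reads the same on both strands). They are from RefSeq on GRCm38.p6, whose promoter windows (38, some genes with more than 1 start) matched 35 of the 44 collagens, and each is given 5′ to 3′ on the gene's strand with E-boxes in capitals. The Col9a2 stretch ends at the start of the gene in GENCODE M21, which lies upstream of the RefSeq start.
Col8a1 (chr16:57754738-57754987, minus strand): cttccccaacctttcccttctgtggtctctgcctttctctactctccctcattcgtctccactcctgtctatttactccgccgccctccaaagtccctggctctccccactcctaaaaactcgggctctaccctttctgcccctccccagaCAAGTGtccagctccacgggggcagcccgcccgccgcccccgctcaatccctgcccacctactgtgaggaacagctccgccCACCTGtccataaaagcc
Col13a1 (chr10:61979109-61979358, minus strand): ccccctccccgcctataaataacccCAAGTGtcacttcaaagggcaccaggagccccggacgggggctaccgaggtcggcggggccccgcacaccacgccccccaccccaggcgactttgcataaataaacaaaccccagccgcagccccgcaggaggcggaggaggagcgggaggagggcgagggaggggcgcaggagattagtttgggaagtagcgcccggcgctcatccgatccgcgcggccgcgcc
Col9a2 (chr4:121039316-121039384, plus strand): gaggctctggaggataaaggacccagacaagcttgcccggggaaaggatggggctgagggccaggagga
In the 250 bases before the RefSeq start, Col8a1 had 2 E-boxes, Col13a1 had 1, and Col9a2 had 1, which lies after the stretch shown. Of all 32851 mouse windows of that length 66.2% held an E-box, and of the 38 collagen windows 19 did. The narrower motif CATCTG, searched on both strands and itself a form of CANNTG, was in 14.4% of all windows and in 7.89% of the collagen windows, and in none of the windows of Col8a1, Col13a1 and Col9a2. These matches describe the letters of the windows only.

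The nearest tested gene on each side of the 4 collagens on the chromosome was compared as well, so genes under the filter can lie between. For Col8a1 the nearest tested genes, Filip1l and Dcbld2, had log2 fold changes of -0.01 and -0.01. For Col22a1 the neighbors Khdrbs3 and Trappc9 had -0.10 and -0.04, and for Col13a1 the neighbors H2afy2 and Fam241b had 0.18 and -0.11. For Col9a2 the neighbor Smap2 had a mean of 14.1 FPKM in mutants and 18.3 FPKM in controls, a log2 fold change of -0.36 (SE 0.09), which passed with the block only (limma adjusted p = 0.0239, against 0.332 in the plain fit). On its other side Zmpste24 had -0.11. These genes lie at unlike distances. Khdrbs3 ends at 69101211 and Trappc9 starts at 72589620 of chromosome 15, while Col22a1 spans 71795795 to 72034227. Dcbld2 starts at 58408443 of chromosome 16, and Col8a1 ends at 57754737. Smap2 ends at 121017247 and Zmpste24 starts at 121059237 of chromosome 4, closer to Col9a2 (121039385 to 121055322). Apart from Smap2 none of these 8 neighbors passed in the fit with or without the block.

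**Figure D3:**
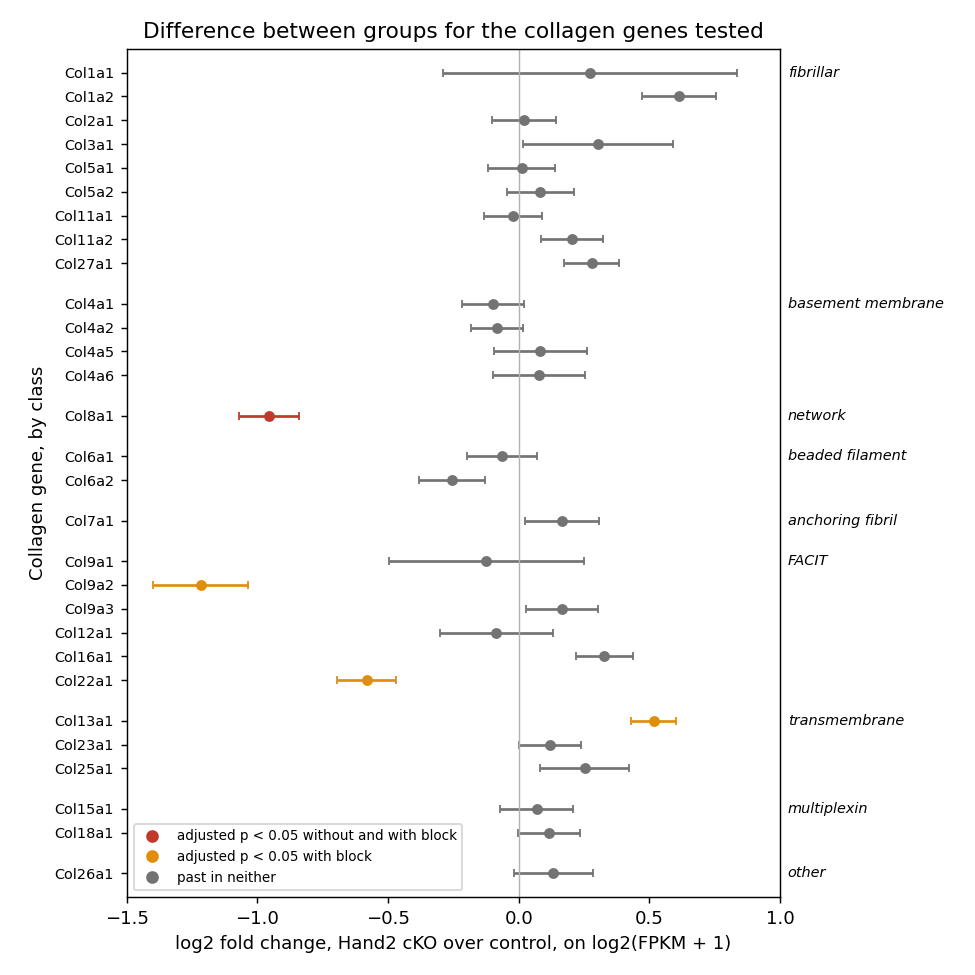
Log2 fold change of Hand2 cKO over control on the log2(FPKM + 1) scale, with its SE without the block as a bar, for the 29 collagens tested, by class. Col8a1 (red) passed without and with the block, Col9a2, Col22a1 and Col13a1 (orange) with the block, and the gray genes in neither.

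Among the fibrillar chains none of 9 tested passed in either fit. Their median log2 fold change was 0.20, and over all genes tested the median was -0.01. Col1a2, the second chain of type I collagen, had 24.7, 32.1 and 25.1 FPKM in mutants and 17.8, 14.9 and 19.7 FPKM in controls, without overlap. Its log2 fold change of 0.61 (SE 0.14) did not pass in the plain or the blocked fit (limma adjusted p = 0.318 and 0.0702). It did pass with array weights (adjusted p = 0.0316), with voom on the recovered reads and the block (0.00833), and with the block without both libraries numbered 3 (0.0484). Its partner Col1a1 behaved differently, with 35.8, 130 and 28.6 FPKM in mutants and 47.3, 27.4 and 58.1 FPKM in controls. Mutant library 2 stood far above the others, and the log2 fold change was 0.27 with all libraries and -0.39 without that one. The ratio of Col1a1 to Col1a2 accordingly spread from 1.14 to 4.07 in mutants and from 1.84 to 2.95 in controls. Mutant library 2 was also the highest for the fibril-associated genes Postn (16.8 FPKM, at most 1.29 in the others) and Lum (10.9, at most 4.14). So it was for Dcn (1.96 FPKM, at most 1.22 in the others) and Col6a3 (0.494, at most 0.284). Col1a2 was highest there too, while Col3a1 was highest in mutant library 1.

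Col27a1, a fibrillar chain of developing cartilage, had 2.43, 2.62 and 2.35 FPKM in mutants and 1.57, 2.08 and 1.94 FPKM in controls. Its groups did not overlap, but the log2 fold change of 0.28 (SE 0.11) passed in neither fit (limma adjusted p = 0.636 plain and 0.114 blocked), and among the alternatives it passed with voom and the block (0.0147). Col3a1, the type III chain of distensible tissues such as vessel walls, had 27.1, 26.5 and 15.1 FPKM in mutants and 23.1, 12.3 and 19.7 FPKM in controls. The type V chains, which start and regulate type I fibrils, overlapped between the groups, with Col5a1 at 40.4 ± 5.15 FPKM in mutants and 40.0 ± 4.44 FPKM in controls, and Col5a2 at 8.90 ± 1.58 FPKM in mutants and 8.28 ± 0.586 FPKM in controls (SD, n = 3 each). The ratio of Col5a1 to Col5a2 was 4.57 ± 0.243 in mutants and 4.82 ± 0.217 in controls (SD, n = 3 each). Col11a2, a type XI chain of cartilage, had means of 1.30 FPKM in mutants and 0.999 FPKM in controls, and Col5a3 and Col24a1 were under the filter at no more than 0.268 FPKM.

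None of the 4 basement membrane chains tested passed in either fit. Col4a1, with Col4a2 the ubiquitous type IV pair, had 72.6, 76.1 and 81.0 FPKM in mutants and 73.6, 81.4 and 92.1 FPKM in controls. Col4a2 had 59.2, 57.9 and 58.1 FPKM in mutants and 57.5, 60.9 and 67.8 FPKM in controls. Their log2 fold changes were -0.10 (SE 0.12) and -0.08 (SE 0.10), and the groups of both overlapped. The ratio of Col4a1 to Col4a2 stayed between 1.23 and 1.39 in mutants and between 1.28 and 1.36 in controls.

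These chain genes lie head to head on chromosome 8, and their annotated first exons overlap by 22 bases, which are shown because the starts of both genes lie at the ends of this stretch.
Col4a1 and Col4a2 shared start (chr8:11312805-11312826, plus strand, RefSeq, GRCm38.p6): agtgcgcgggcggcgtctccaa
The X-linked pair Col4a5 and Col4a6, also arranged head to head, overlapped between the groups as well. Col4a5 had 8.97, 12.4 and 12.0 FPKM in mutants and 7.98, 11.7 and 11.9 FPKM in controls. Col4a6 had 4.18, 6.35 and 5.75 FPKM in mutants and 3.91, 5.70 and 5.65 FPKM in controls. In both groups the library numbered 1 was the lowest for either gene, and the ratio of Col4a5 to Col4a6, chosen after the values were seen, was between 1.95 and 2.15 in mutants and 2.04 and 2.11 in controls. The chains of the kidney and lung pair, Col4a3 and Col4a4, were at most 0.0954 and 0.207 FPKM in any library.

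**Figure D4:**
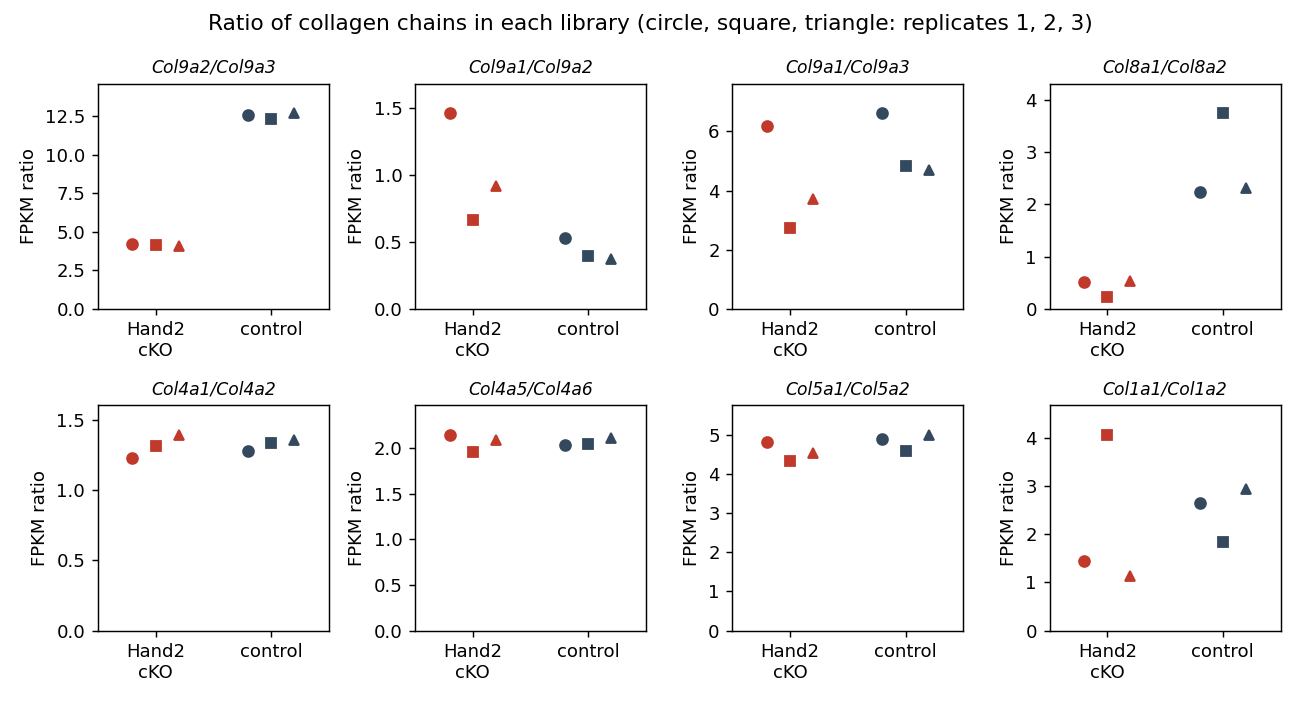
Ratio of the FPKM of paired collagen chains in each library, Hand2 cKO left and control right, with the marker shape for the replicate number and axes from 0. The ratio of Col9a2 to Col9a3 is 4.07 to 4.23 in mutants and 12.3 to 12.7 in controls and that of Col8a1 to Col8a2 is below 1 in mutants only, while the type IV and type V pairs overlap between the groups.

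Chains of the remaining classes did not pass in the plain or the blocked fit. For the type VI chains, which form beaded filaments around cells, Col6a1 had 2.89, 2.73 and 2.56 FPKM in mutants and 3.19, 2.23 and 3.38 FPKM in controls, and Col6a2 had 2.27, 1.88 and 1.94 FPKM in mutants and 3.05, 2.10 and 2.75 FPKM in controls. The ratio of Col6a1 to Col6a2 was 1.27, 1.45 and 1.32 in mutants and 1.05, 1.06 and 1.23 in controls, without overlap. Among the alternatives Col6a2 passed, lower in mutants, with voom and the block (limma adjusted p = 0.0316). Col6a3, which completes the type VI trimer in most tissues, was at most 0.494 FPKM, and Col6a4, Col6a5 and Col6a6 at most 0.0231 FPKM.

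Col18a1, the multiplexin whose end fragment is endostatin, had 148, 175 and 147 FPKM in mutants and 147, 143 and 143 FPKM in controls. These groups did not overlap, but the log2 fold change was 0.12 (SE 0.12), and without mutant library 2 it was 0.035. Col15a1, the other multiplexin, had 3.19, 2.77 and 2.34 FPKM in mutants and 2.23, 3.20 and 2.37 FPKM in controls. Neither multiplexin passed. Col7a1, the anchoring fibril of skin, had 0.931, 1.38 and 1.05 FPKM in mutants and 0.622, 1.05 and 1.004 FPKM in controls. Col26a1 had 13.1, 10.6 and 9.49 FPKM in mutants and 12.0, 8.86 and 9.18 FPKM in controls, and Col28a1 was at most 0.0382 FPKM.

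Of the further FACITs, Col16a1 had 3.48, 2.84 and 2.62 FPKM in mutants and 2.30, 2.09 and 2.08 FPKM in controls, a log2 fold change of 0.33 (SE 0.11) that passed in neither fit (limma adjusted p = 0.557 plain and 0.0690 blocked), and among the alternatives it passed with voom and the block (0.0101). Col12a1, a FACIT of tendon and dense connective tissue, had 4.56, 5.60 and 7.71 FPKM in mutants and 4.75, 6.27 and 8.15 FPKM in controls. Libraries of the same number lay close to each other. Col14a1 had means of 0.769 FPKM in mutants and 0.961 FPKM in controls, and Col19a1 and Col20a1 were at most 0.0540 and 0.357 FPKM. Over the collagens tested the groups did not overlap for 5 genes that were higher and 3 that were lower in mutants, where 5.44% and 6.85% of all genes tested did so. A positive log2 fold change was found for 19 of the 29, where 47.9% of all genes tested had one.

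Genes that make, bind or remodel collagen were read from 5 lists with 96 genes, of which 68 were tested. None passed without the block, where 0.0237% and 0.150% of all genes tested were called higher and lower (by unadjusted limma p below 0.05, 2 of 68 were higher and 6 lower, against 2.60% and 4.32% of all genes tested). With the block 1 rose and 7 fell, where 1.42% and 3.70% of all genes tested were called.

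Of 24 processing and cross-linking enzymes tested, 1 rose and 2 fell with the block, and the median log2 fold change was -0.04. P3h2, a prolyl 3-hydroxylase of collagen chains, had 8.95 ± 0.973 FPKM in mutants and 14.8 ± 2.12 FPKM in controls (SD, n = 3 each), and fell with the block (limma adjusted p = 0.00698, against 0.173 in the plain fit). P3h4, a partner of the lysyl hydroxylase complex in the endoplasmic reticulum, had 33.7 ± 3.68 FPKM in mutants and 50.4 ± 8.30 FPKM in controls, and Adamts14, a protease that trims procollagen ends, had 2.95 ± 0.493 FPKM in mutants and 1.69 ± 0.213 FPKM in controls (SD, n = 3 each). P3h4 fell and Adamts14 rose with the block (limma adjusted p = 0.00919 and 0.0194) and not without it. Fkbp14, a prolyl isomerase, had 2.66 FPKM in mutants and 3.14 FPKM in controls and passed in neither.

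Among 7 receptors tested 1 fell with the block. This was Itga1, the integrin subunit that binds collagen IV, with 1.69, 1.97 and 3.25 FPKM in mutants and 2.82, 3.71 and 4.12 FPKM in controls (limma adjusted p = 0.0470, against 0.687 in the plain fit), and its groups overlapped. Mrc2, a receptor that takes up collagen, had 21.2 FPKM in mutants and 18.3 FPKM in controls and passed in neither fit. Nor did Itgb1, the common beta subunit of collagen integrins, with 79.1 FPKM in mutants and 95.1 FPKM in controls, or Cd36, a scavenger receptor that binds collagen, with 2.34 FPKM in mutants and 2.73 FPKM in controls. Of 9 proteases and inhibitors Mmp15, a membrane-bound metalloprotease, fell with the block, at 50.9 ± 4.99 FPKM in mutants and 62.7 ± 7.98 FPKM in controls (SD, n = 3 each; limma adjusted p = 0.0429, against 0.742 in the plain fit). The metalloprotease inhibitors Timp2 (15.4 FPKM in mutants, 17.8 in controls) and Timp1 (6.20 in mutants, 7.44 in controls) and the secreted protease Mmp11 (14.97 in mutants, 13.6 in controls) passed in neither.

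Of 16 basement membrane partners 1 fell with the block, with a median log2 fold change of -0.06. This was Lama4, a laminin chain of vessels and heart, with 4.05, 3.53 and 4.69 FPKM in mutants and 5.67, 6.00 and 7.52 FPKM in controls (limma adjusted p = 0.0148, against 0.355 in the plain fit). The laminin chains Lama5 (34.5 FPKM in mutants, 28.7 in controls) and Lamb1 (26.2 in mutants, 29.6 in controls) and the collagen-binding glycoprotein Sparc (156 in mutants, 185 in controls) passed in neither. Of 12 fibril-associated genes 2 fell with the block. Tnc, which encodes the matrix protein tenascin-C, had 32.5, 35.9 and 45.4 FPKM in mutants and 54.5, 60.7 and 74.1 FPKM in controls (limma adjusted p = 0.00272, against 0.303 in the plain fit). Thbs1, which encodes thrombospondin 1, had 7.04, 7.83 and 10.53 FPKM in mutants and 8.93, 10.67 and 13.3 FPKM in controls, with overlap between the groups (limma adjusted p = 0.0270, against 0.838 in the plain fit). Matn4, which encodes a matrilin, had 0.804 ± 0.0523 FPKM in mutants and 1.40 ± 0.190 FPKM in controls, and Fbn1, which encodes fibrillin 1 of microfibrils, had 12.3 ± 1.84 FPKM in mutants and 14.99 ± 2.02 FPKM in controls (SD, n = 3 each), and these passed in neither fit.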

How the data were processed

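The authors deposited 1 table of FPKM values with a column per library. Per the submitters' processing notes, bcl2fastq 2.18, STAR 2.5.1b and Cufflinks 2.2.1 were used and the build is mm8. No source used here gives the annotation, the strand setting or any filter. Since FPKM values step by whole reads, the reads behind them were recovered. They came out whole (within 0.0001) for all 25888 genes, but gene lengths were fitted along with the reads, so this alone is no check. For 20310 of 25888 genes (78.5%) the length equaled the exon union of GENCODE M21, so coordinates are on GRCm38. For Col8a1, Col2a1 and Col11a1, among others, it did not, so the exons counted differ from those described. Symbols came from a reference name table without a match for 129 IDs.

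The comparison used limma 3.58.1 in R 4.3.3 with empirical Bayes moderation and a trend, two-sided, with Benjamini-Hochberg adjustment and a threshold of 0.05. The pseudocount was 1, and a fold change on the log2(FPKM + 1) scale understates that of low genes. Same-numbered libraries deviated together from their group means (r = 0.73, 0.44 and 0.44 over genes for numbers 1, 2 and 3). The blocked fit therefore took libraries as paired by number, and the plain fit did not. These correlations come from the same values that were tested. Mutant 3 and control 2, of unlike numbers, had 0.31, and what a number stands for is not labelled. Named were members past a fit, members with an unadjusted p under 0.05, the 2 highest of each class, and up to 4 of each partner list by p. Sox9, Pax9, Pax1, Nkx3-2, Acan, Matn1, Noto, Postn, Lum, Dcn, the muscle markers named, the neighboring genes and some ratios were added after their values were seen. Members and lists were chosen with earlier results of these data known, so class counts and medians are descriptions. The number of libraries limits precision.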

Additional observations from a re-analysis of the deposited data

How the results depend on the processing

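Of 29 collagens 0 were higher and 1 was lower without the block. Higher collagens numbered 1 with the replicate block, 1 with the block and a pseudocount of 0.1, 1 with the block and a minimum mean of 0.5 FPKM, 1 with the block after quantile normalization, 2 with array weights (Col13a1 and Col1a2), 4 with voom on recovered reads and the block (Col13a1, Col1a2, Col16a1 and Col27a1), and 0 with no filter and the block. Lower collagens numbered 3 with the replicate block, 3 with the block under each of the pseudocount of 0.1, the minimum of 0.5 and quantile normalization, 3 with array weights, 4 with voom and the block (Col6a2 besides the 3), and 0 with a pseudocount of 0.1, with no filter, and with no filter and the block. Leaving out any 1 library gave 0 higher and 0 lower. With the block and both libraries of number 1, 2 or 3 left out, 0, 1 and 2 were higher and 2, 1 and 1 lower. After rescaling to equal sums, taken without red cell markers and genes of the mitochondrial genome, 1 was lower, Col9a2 in place of Col8a1. The cause of these changes was not tested.

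Of the 68 partner genes tested, 0 were higher and 0 lower without the block. Higher partner genes numbered 1 with the replicate block, with the block and a pseudocount of 0.1 or a minimum of 0.5 FPKM, and with array weights, 2 with the block after quantile normalization, 3 with voom and the block, and 0 with no filter and the block. Lower partner genes numbered 7 with the replicate block, 7 with the block and a pseudocount of 0.1, 1 with no filter and the block, 5 with the block and the minimum of 0.5, 6 with the block after quantile normalization, 5 with array weights and 11 with voom and the block. With the block and number 1, 2 or 3 left out, 4, 3 and 5 were lower and 1, 0 and 0 higher. Without any 1 library 0 were called.

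Some collagens whose log2 fold changes did not pass turned sign. With the replicate block and without replicate 2 the values were -0.70 for Col1a1, -0.069 for Col3a1, -0.16 for Col5a1, -0.077 for Col5a2 and 0.052 for Col11a1. With the block it was 0.052 for Col6a1 without replicate 3 and -0.085 for Col15a1 without replicate 1. Col2a1 was at -0.041 with array weights and Col11a1 at 0.025 after rescaling. Leaving out 1 library each gave -0.39 to 0.68 for Col1a1, -0.015 to 0.079 for Col2a1, -0.089 to 0.093 for Col5a1, -0.043 to 0.17 for Col5a2, -0.11 to 0.028 for Col11a1, -0.087 to 0.22 for Col4a5, -0.070 to 0.23 for Col4a6, -0.20 to 0.020 for Col6a1, -0.51 to 0.18 for Col9a1, -0.26 to 0.081 for Col12a1 and -0.011 to 0.19 for Col15a1. For the multiplexin sum, the log2 ratio of mutant to control was 0.12, and 0.037 to 0.17 without 1 library, lowest without mutant library 2.

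Over all alternatives in which they were tested, Col8a1, Col9a2, Col22a1 and Col13a1 kept their directions, with log2 fold changes of -2.19 to -0.89, -1.34 to -1.05, -1.03 to -0.49 and 0.48 to 0.65. They passed in 10 of 18, 10 of 22, 6 of 22 and 8 of 22 alternatives, with adjusted p from 9.47e-05 to 0.228, 2.78e-05 to 0.411, 0.000321 to 0.716 and 0.00115 to 0.547. At the main settings the block changed the calls of Col9a2, Col22a1 and Col13a1 and of no other collagen. The filter on mean FPKM limits what can be said of Col8a1, which rests on 37 to 60 reads in mutant libraries.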
